A study of Sus scrofa with 10 samples.

Results

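Integrins are the cell surface receptors that tie the extracellular matrix to the actin cytoskeleton, and the focal adhesion scaffold is the set of cytoplasmic proteins assembled on their tails. The genes described here are 44 integrin subunits and scaffold or adaptor genes, chosen by name, of which 43 had a row in the table, which holds 12378 genes with a symbol and 3260 without; ITGAX is not analysed here. They were read in right ventricular biopsies of 5 pigs labelled CTEPH, a pressure load model of chronic thromboembolic pulmonary hypertension, and of 5 Sham pigs, with 1 library for each pig. CTEPH libraries are s1, s3, s4, s5 and s9, and Sham libraries are s2, s6, s7, s8 and s10. The labels name no other treatment, allele or agent, and the sources used here give no strain, sex, age, batch or time after surgery.

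Each integrin is a pair of an alpha and a beta subunit. In the heart the laminin receptor of muscle pairs ITGA7 with ITGB1 and sits at the costamere, where the Z-disc is anchored to the membrane, while ITGB2 and ITGB7 pair with ITGAL, ITGAM, ITGAE or ITGA4 on leukocytes. Talins and kindlins bind the beta tail and activate the receptor, the ILK, PINCH and parvin proteins form the complex behind it, and vinculin, tensins, filamin and alpha-actinins carry the link to actin.

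Values are deposited log2 expression values, so a difference of 1 is a 2-fold change, and they are not scaled by gene length, so levels are compared between groups and not between genes. Relative depth, read from the low counts, was 0.724 to 1.57 over the CTEPH libraries and 0.748 to 1.51 over the Sham libraries. The cardiomyocyte marker TNNT2 was at 18.89 ± 0.30 in CTEPH and 18.76 ± 0.23 in Sham (n = 5 each, SD). Of 10 measured cardiomyocyte markers MYL2 rose, with an adjusted p of 0.0509 without s4 (limma, Benjamini-Hochberg), and 0 fell. At an unadjusted p under 0.05, 1 was higher and 2 were lower (limma), against 9.84% and 10.5% of all genes. The lower ones were CKM at -0.62 ± 0.21 and MYBPC3 at -0.54 ± 0.23. Of the 10 differences 4 were positive, and the median was -0.09. Of 7 markers of dividing cells 7 rose (TOP2A, CCNB1, CDK1, BUB1, UBE2C, MCM2 and PCNA), with a median log2 difference of 3.60. Of 3 measured epithelial and mesothelial markers KRT8 rose, with the call lost without s2, s3, s4, s5, s6 or s10 (adjusted p of 0.0616 to 0.0829, limma with Benjamini-Hochberg), and 0 fell. The endothelial markers TEK and FLT1 fell, 2 of 10 measured. TEK lost its call without s3, s4, s6, s8 or s10 (adjusted p of up to 0.0576) and FLT1 without s3, s4, s6, s7 or s8 (up to 0.077, limma with Benjamini-Hochberg). By the RefSeq annotation, 20 of the 43 genes, ITGAM, ITGB6, ITGB2, LIMS2, PARVA and TNS3 among them, overlap another annotated gene, and their reads are uncertain where the strand was not used in counting. In whole tissue, fewer cells of a type and less RNA per cell cannot be told apart.

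Of the 43 integrin and scaffold genes, 2 passed the test between the groups. ITGA10, an alpha subunit of a collagen receptor, rose in CTEPH, and TNS3, a tensin that links beta tails to actin, fell. The other 41 genes did not pass. A gene is called at an adjusted p under 0.05 (limma, Benjamini-Hochberg over all genes of the table), and by this rule 2 of 43 genes (4.65%) were called, against 4.62% of all genes tested. By direction, 1 of 43 was higher, against a background of 2.83%, and 1 of 43 was lower, against 1.79%. At an unadjusted p under 0.05 there were 15 of 43 genes (34.9%), 8 higher and 7 lower in CTEPH, against 20.3% of all genes. All 5 CTEPH libraries lay outside the Sham range on the same side for 3 of 43 genes (6.98%), which were ITGA10, ITGB8 and TNS3, against 6.57% of all genes. By direction these were 2 higher, against 3.70% of all genes, and 1 lower, against 2.87%. The difference was positive for 26 of 43 genes (60.5%) and for 46.4% of all genes, and the median log2 difference was 0.18 over the 43 genes and -0.03 over all genes.

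**Figure D1:**
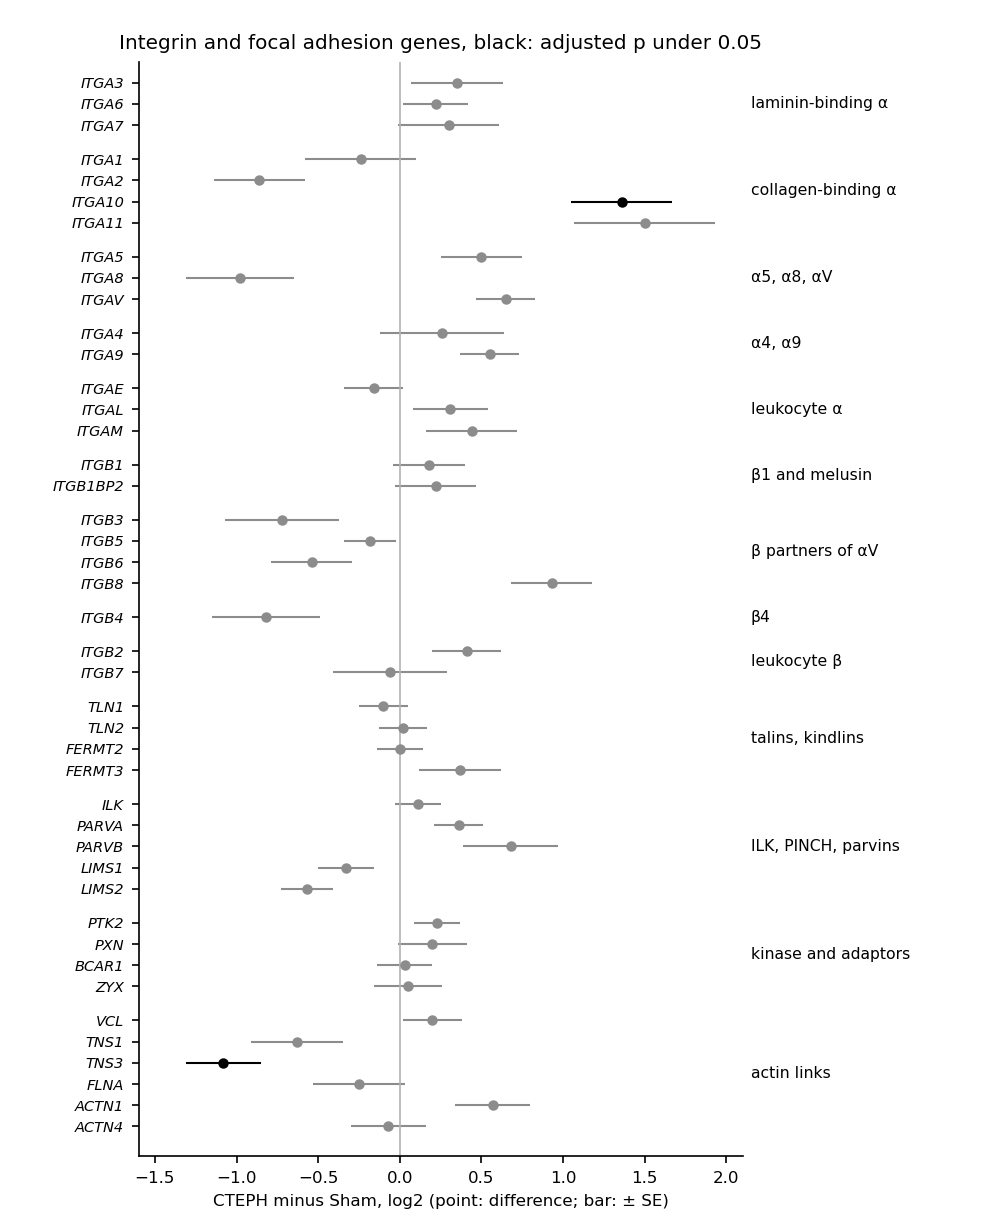
Difference between CTEPH and Sham on the log2 scale for each of the 43 measured genes, grouped by role, with bars of ± SE (limma, n = 5 per group). Black points passed an adjusted p of 0.05, which were ITGA10 at 1.36 and TNS3 at -1.08.

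The 4 collagen-binding alpha subunits, all of which pair with ITGB1, differed in direction. ITGA10 rose 2.56-fold, ITGA11 had a larger difference that did not pass, and ITGA1 and ITGA2 had negative differences that did not pass. ITGA10, on chromosome 4 from 99422469 to 99440756 of Sscrofa11.1, had log2 values of 8.68 in s1, 10.47 in s3, 9.12 in s4, 9.34 in s5 and 8.60 in s9 in CTEPH, against 7.86 in s2, 7.58 in s6, 7.83 in s7, 8.39 in s8 and 7.77 in s10 in Sham. The groups did not overlap, and s9 in CTEPH lay nearest to s8 in Sham. The difference was 1.36 ± 0.31 (SE; adjusted p = 0.0274, limma with Benjamini-Hochberg). Low deposited values can be read back as whole counts, which for ITGA10 came out as 141 in s9, 203 in s1, 359 in s5 and 432 in s4 in CTEPH, against 83 to 140 in Sham. These counts are not scaled by depth, which was 0.724 in s9 and 1.51 in s6, the Sham library with 140. The value of s3, at 10.47, lay above those that could be read back. The call was lost in 6 of the 10 refits without 1 library: the adjusted p was 0.0571 without s2, 0.0546 without s4, 0.0627 without s5, 0.0704 without s6, 0.0603 without s7 and 0.0631 without s10 (limma, Benjamini-Hochberg), with differences of 1.05 to 1.52 over the 10 refits.

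ITGA11, the fibrillar collagen receptor subunit known from fibroblasts, was at 7.46 in s1, 9.31 in s3, 9.84 in s4, 8.87 in s5 and 8.14 in s9 in CTEPH, against 7.93 in s2, 7.13 in s6, 7.22 in s7, 6.16 in s8 and 7.70 in s10 in Sham. CTEPH library s1 lay within the Sham range and the other 4 above it. The 2.82-fold higher mean, with an SE of 0.43 on the log2 scale, missed the threshold (adjusted p = 0.0692, limma with Benjamini-Hochberg). Over the 10 refits without 1 library the adjusted p was 0.019 without s1 and 0.0575 to 0.152 in the other 9. ITGA2, a collagen receptor subunit of epithelia and platelets, had log2 values of 6.69 to 8.16 in CTEPH and 7.55 to 8.44 in Sham (difference -0.86 ± 0.28, adjusted p = 0.106, limma with Benjamini-Hochberg). In CTEPH 4 libraries lay below every Sham library, and s5, at 8.16, lay within the Sham range; without s5 the adjusted p was 0.0217, and in the other 9 refits it was 0.11 to 0.22 (limma, Benjamini-Hochberg). ITGA1, at 9.43 ± 0.81 in CTEPH and 9.67 ± 0.43 in Sham, ranged from 8.36 in s3 to 10.63 in s5 within CTEPH. ITGA1 and ITGA2 lie side by side on chromosome 16, at 32130265 to 32309917 and 32336240 to 32440311 and overlap the genes PELO and MOCS2. Of 10 measured fibroblast markers 0 rose and 0 fell by limma, with 2 higher and 1 lower at an unadjusted p under 0.05 (9.84% and 10.5% over all genes). The level of the fibroblast markers (log2 values centred on each gene's mean, then averaged) was -0.40 to 0.54 in CTEPH and -0.38 to 0.17 in Sham. Their part in the values of ITGA10 and ITGA11 was not tested.

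**Figure D2:**
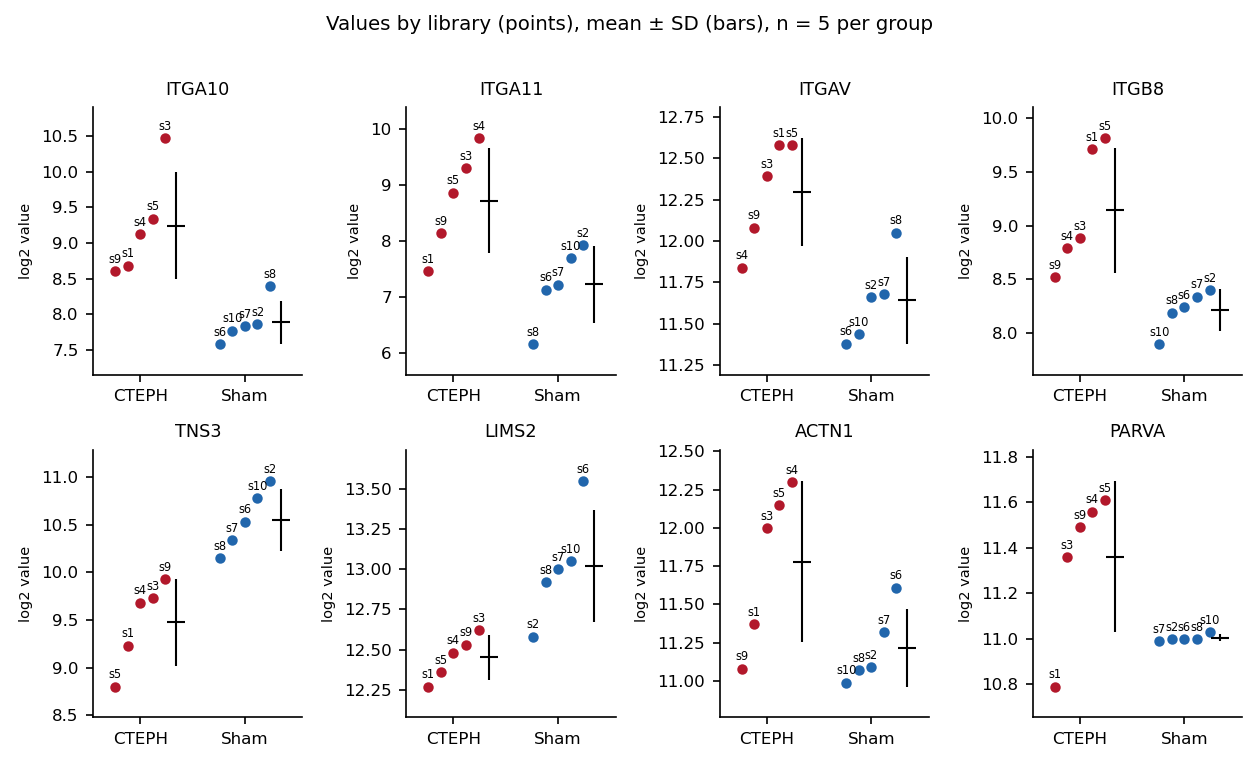
Log2 value in each library for ITGA10, ITGA11, ITGAV, ITGB8, TNS3, LIMS2, ACTN1 and PARVA, with CTEPH on the left, Sham on the right and bars of mean ± SD (n = 5 per group). CTEPH and Sham do not overlap for ITGA10, ITGB8 and TNS3, and the Sham values of PARVA lie between 10.99 and 11.03.

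No gene of the laminin receptor of muscle passed. ITGA7, on chromosome 5 from 21126565 to 21150875, was at 12.99 in s1, 14.80 in s3, 14.49 in s4, 14.17 in s5 and 13.08 in s9 in CTEPH, against 13.70 in s2, 13.53 in s6, 13.41 in s7, 13.74 in s8 and 13.66 in s10 in Sham. The CTEPH libraries lay on both sides of the narrow Sham range, 3 above it and 2 below it, with none inside. The difference was 0.30 ± 0.31 (adjusted p = 0.639, limma with Benjamini-Hochberg), and the SD was 0.83 in CTEPH and 0.14 in Sham. ITGB1, the beta subunit shared by most integrins of the heart, was at 13.24 in s1, 14.49 in s3, 14.07 in s4, 14.51 in s5 and 13.88 in s9 in CTEPH, against 14.12 in s2, 13.72 in s6, 13.70 in s7, 13.87 in s8 and 13.89 in s10 in Sham. Here s3 and s5 lay above the Sham range and s1 below it, and the difference was 0.18 ± 0.22 (adjusted p = 0.695, limma with Benjamini-Hochberg).

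ITGB1BP2 encodes melusin, a muscle protein that binds the ITGB1 tail and is known from the mouse as a sensor of pressure load. It was at 14.67 in s1, 13.33 in s3, 14.07 in s4, 14.22 in s5 and 13.81 in s9 in CTEPH, against 13.31 in s2, 13.65 in s6, 14.12 in s7, 14.30 in s8 and 13.61 in s10 in Sham. The libraries were ordered otherwise than for ITGA7: s1, the lowest for ITGA7, was the highest, and s3, the highest for ITGA7, was the lowest of CTEPH. The difference was 0.22 ± 0.25 (adjusted p = 0.667, limma with Benjamini-Hochberg). ITGA3 and ITGA6, laminin receptor subunits known mainly from epithelia and vessels, differed by 0.35 ± 0.28 and 0.22 ± 0.20, and ITGB4, the partner of ITGA6 in hemidesmosomes, by -0.82 ± 0.33; their adjusted p was 0.519, 0.586 and 0.182 (limma, Benjamini-Hochberg).

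ITGAV and its partners form receptors for vitronectin, fibronectin and latent TGF-beta. ITGAV and ITGB8 were higher in CTEPH just short of the threshold, while ITGB3, ITGB5 and ITGB6 had negative differences. ITGB8, on chromosome 9 from 89342245 to 89450701, was at 9.71 in s1, 8.88 in s3, 8.79 in s4, 9.81 in s5 and 8.52 in s9 in CTEPH, against 8.40 in s2, 8.24 in s6, 8.34 in s7, 8.19 in s8 and 7.90 in s10 in Sham. The groups did not overlap, and the difference of 0.93 ± 0.25 had an adjusted p of 0.0533 (limma, Benjamini-Hochberg). An exact permutation test on this gene alone (two-sided, unadjusted) gave p = 0.00794, the smallest that 5 against 5 libraries can give. Any gene whose groups do not overlap gets this value, so it adds nothing to the lack of overlap, which 6.57% of all genes share. Without s9 the adjusted p was 0.0207, the lowest of the 10 refits, in which it reached up to 0.123.

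ITGAV, on chromosome 15 from 91604666 to 91711843, was at 12.58 in s1, 12.39 in s3, 11.84 in s4, 12.58 in s5 and 12.08 in s9 in CTEPH, against 11.66 in s2, 11.38 in s6, 11.68 in s7, 12.05 in s8 and 11.44 in s10 in Sham. Only s4 of the CTEPH libraries lay within the Sham range, below s8. The difference of 0.65 ± 0.18 had an adjusted p of 0.0535 (limma, Benjamini-Hochberg), and of 0.0339, 0.0387 and 0.0455 without s4, s8 and s9, while it stayed above the threshold at 0.0812 to 0.128 in the other 7 refits. ITGB3, known from platelets and vessels, ranged from 7.13 in s3 to 9.24 in s1 within CTEPH and from 8.52 to 9.19 in Sham, with a difference of -0.72 ± 0.35 (adjusted p = 0.274, limma with Benjamini-Hochberg). Of 4 measured platelet markers 0 were called by limma and 1, ITGA2B, the partner of ITGB3 on platelets, had an unadjusted p under 0.05, at 7.46 ± 0.73 in CTEPH and 8.58 ± 0.50 in Sham (adjusted p = 0.0823, limma with Benjamini-Hochberg). The platelet markers differed in direction, with 2 of 4 differences positive and a median of 0.14. GP9 was at 0.47 ± 0.33, TUBB1 at 0.61 ± 0.45 and GP1BB at -0.18 ± 0.34. ITGB5 and ITGB6 differed by -0.18 ± 0.16 and -0.54 ± 0.25 (adjusted p = 0.568 and 0.243). For ITGB6, 4 CTEPH libraries lay below the Sham range of 11.72 to 12.13 and s9 lay above it at 12.26; without s9 the adjusted p was 0.0318, and in the other 9 refits 0.279 to 0.402 (limma, Benjamini-Hochberg).

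The remaining alpha subunits outside the leukocyte group did not pass either. ITGA9, a receptor subunit for tenascin-C and osteopontin, was at 10.07 in s1, 10.88 in s3, 10.82 in s4, 10.94 in s5 and 10.30 in s9 in CTEPH, against a Sham range of 9.95 to 10.15. CTEPH library s1 lay inside that range and the other 4 above it (difference 0.55 ± 0.18, adjusted p = 0.102; 0.0233 without s1 and 0.0647 to 0.205 in the other 9 refits, limma with Benjamini-Hochberg). ITGA8, known from mesenchymal cells, was lower at 6.68 ± 0.73 in CTEPH and 7.66 ± 0.34 in Sham (n = 5 each, SD). The difference was -0.98 ± 0.33 (adjusted p = 0.112, and 0.0379 without s3 and 0.0889 to 0.21 in the other 9 refits, limma with Benjamini-Hochberg). Its read-back counts, not scaled by depth, were 28 to 99 in CTEPH and 53 to 167 in Sham. ITGA5, the fibronectin receptor subunit, was at 14.39 ± 0.56 in CTEPH and 13.90 ± 0.30 in Sham (difference 0.50 ± 0.25, adjusted p = 0.278, limma with Benjamini-Hochberg).

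No leukocyte integrin passed. ITGB2, the beta subunit common to most leukocyte integrins, was at 8.74 in s1, 9.38 in s3, 9.41 in s4, 8.91 in s5 and 8.74 in s9 in CTEPH, against 8.79 in s2, 9.10 in s6, 8.36 in s7, 8.57 in s8 and 8.32 in s10 in Sham. The groups overlapped, with 2 CTEPH libraries above the Sham range, and the difference was 0.41 ± 0.21 (adjusted p = 0.293, limma with Benjamini-Hochberg). ITGAM, its partner on macrophages and neutrophils, was at 8.44 in s1, 9.92 in s3, 9.32 in s4, 8.39 in s5 and 8.68 in s9 in CTEPH, against 8.44 in s2, 8.75 in s6, 8.58 in s7, 8.07 in s8 and 8.72 in s10 in Sham. It stood out in s3 and s4 and was within the Sham range in the other 3 CTEPH libraries (difference 0.44 ± 0.28, adjusted p = 0.42, limma with Benjamini-Hochberg).

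ITGAL, the partner on lymphocytes, differed by 0.31 ± 0.23, and ITGA4, found on lymphocytes and monocytes, by 0.26 ± 0.38. ITGB7 differed by -0.06 ± 0.35 and ITGAE, which pairs with it on intraepithelial lymphocytes, by -0.16 ± 0.18. FERMT3, the kindlin of blood cells, differed by 0.37 ± 0.25, and the adjusted p of these 5 genes was between 0.433 and 0.95 (limma, Benjamini-Hochberg). Read-back counts, not scaled by depth, were low. They were 34 to 104 for FERMT3 in CTEPH against 29 to 91 in Sham, and 35 to 97 for ITGA4 in CTEPH against 15 to 132 in Sham. ITGAE overlaps HASPIN, a mitotic kinase gene that rose by 2.69 on the log2 scale (adjusted p = 0.0162, limma with Benjamini-Hochberg).

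Muscle and leukocyte integrins were set side by side by the centred log2 values averaged over each set, as a description without a test. The muscle set of ITGA7, ITGB1 and ITGB1BP2 was at -0.24 in s1, 0.33 in s3, 0.34 in s4, 0.43 in s5 and -0.28 in s9 in CTEPH, against -0.16 in s2, -0.24 in s6, -0.13 in s7, 0.10 in s8 and -0.16 in s10 in Sham. Libraries s3, s4 and s5 lay above every Sham library, and s1 and s9 just below the lowest Sham library, s6, before rounding. The leukocyte set of 7 measured genes held ITGAL, ITGAM, ITGAE, ITGB2, ITGB7, ITGA4 and the kindlin gene FERMT3, with ITGAE overlapping HASPIN as given above. This set was at -0.28 in s1, 0.44 in s3, 0.29 in s4, -0.01 in s5 and 0.11 in s9 in CTEPH, against -0.24 in s2, 0.39 in s6, -0.40 in s7, -0.16 in s8 and -0.16 in s10 in Sham. Only s3 in CTEPH exceeded s6, the highest Sham library. The mean shift between CTEPH and Sham was 0.23 for the muscle set, and 0.15 (without s5) to 0.33 (without s9) with 1 library left out. For the leukocyte set it was 0.22, and with 1 library left out it ranged from 0.14 without s3 and 0.15 without s7 to 0.35 without s6. The muscle level minus the leukocyte level was 0.00 ± 0.30 in CTEPH and -0.00 ± 0.37 in Sham (n = 5 each, SD), and the shift in this difference was -0.15 without s6 to 0.11 without s9.

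**Figure D3:**
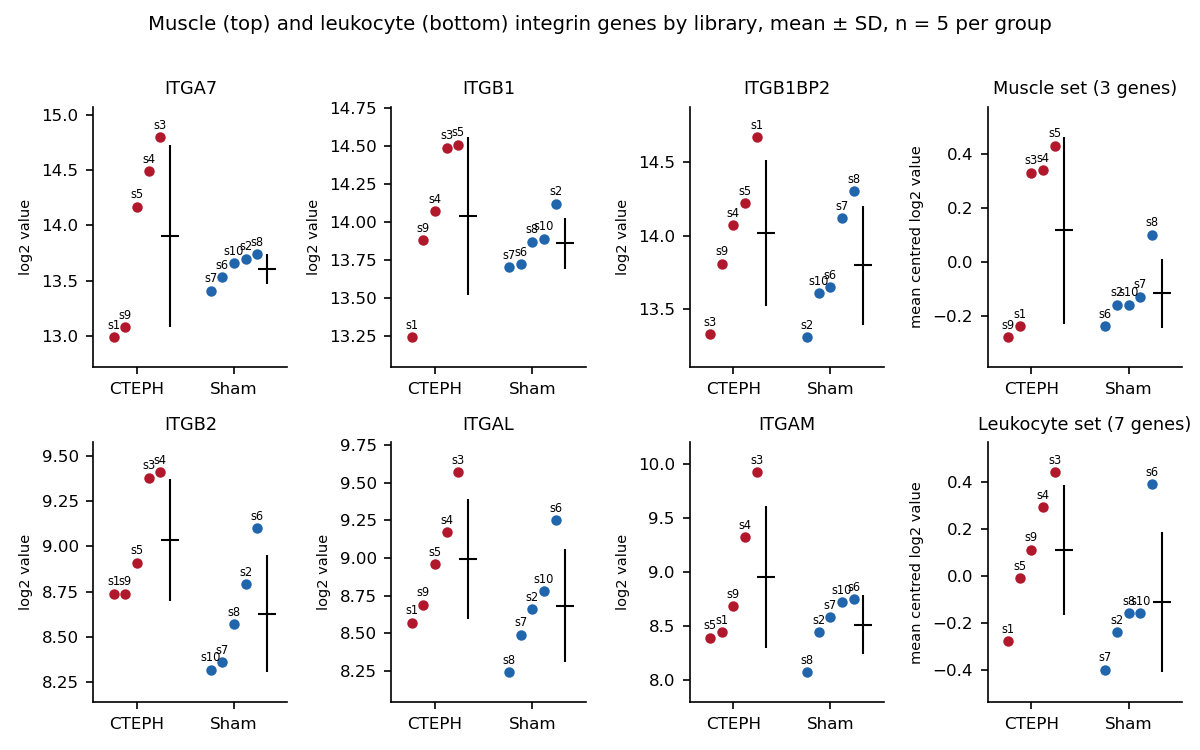
Log2 value in each library for 3 muscle integrin genes and their set level (top) and for 3 leukocyte integrin genes and the level of the 7-gene leukocyte set (bottom), CTEPH left and Sham right, bars of mean ± SD (n = 5 per group). The CTEPH libraries of ITGA7 lie above and below the Sham range of 13.41 to 13.74.

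Markers of other cells were read beside these sets and their part was not tested. Over all genes, 9.84% were higher and 10.5% lower at an unadjusted p under 0.05 (limma), and 46.4% had a positive difference. The level over 9 general leukocyte markers was -0.17 to 0.34 in CTEPH and -0.57 to 0.48 in Sham, with s6 the highest library as in the Sham values of the leukocyte set. Of these 9 markers 0 were called by limma, with 2 higher at an unadjusted p under 0.05. All 9 differences were positive, with a median of 0.37. Of 10 T and NK lymphocyte markers and 3 B and plasma cell markers 0 were called and 0 had an unadjusted p under 0.05, and of 3 neutrophil and mast cell markers 0 were called, with 2 higher and 1 lower at an unadjusted p under 0.05 (limma). Of 11 measured macrophage and monocyte markers MSR1 rose (log2 difference 1.62 ± 0.23, adjusted p = 0.00164, limma with Benjamini-Hochberg) and 0 fell. At an unadjusted p under 0.05, 3 of the 11 were higher and 1 was lower, 9 of the 11 differences were positive with a median of 0.38, and the list's level was -0.18 to 0.66 in CTEPH and -0.60 to 0.17 in Sham. The defining marker PTPRC had a log2 value of 9.45 ± 0.26 in CTEPH and 9.25 ± 0.47 in Sham, so it was not at 0. Of the macrophage markers, CD163 was at 11.16 ± 0.78 in CTEPH and 10.26 ± 0.38 in Sham, AIF1 at 9.10 ± 0.38 in CTEPH and 8.42 ± 0.42 in Sham, and CD68 at 8.64 ± 0.32 in CTEPH and 9.14 ± 0.29 in Sham (n = 5 each, SD); none of the 3 passed by limma, at Benjamini-Hochberg adjusted p of 0.132, 0.129 and 0.175. The level over 9 smooth muscle and pericyte markers was high and low in the same CTEPH libraries as the muscle set. It was at -0.61 in s1, 0.47 in s3, 0.63 in s4, 0.52 in s5 and -0.39 in s9, against -0.34 to 0.09 in Sham. Of the 9 markers CNN1 and DES rose and 0 fell, with a median log2 difference of 0.01. At an unadjusted p under 0.05, 2 were higher and 2 were lower (limma). The lower ones were RGS5 at -0.61 ± 0.26 and PDGFRB at -0.54 ± 0.19. CNN1 lost its call without s2, s3, s5, s6, s8 or s10 (adjusted p of 0.0599 to 0.0723, limma with Benjamini-Hochberg). DES, the desmin gene, is expressed in cardiomyocytes as well.

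Among the scaffold genes, no talin, kindlin or vinculin gene passed, nor did ILK. TLN1, the widely expressed talin, was at 13.07 in s1, 13.45 in s3, 13.24 in s4, 13.42 in s5 and 12.72 in s9 in CTEPH, against 13.47 in s2, 13.29 in s6, 13.07 in s7, 13.19 in s8 and 13.41 in s10 in Sham. Only s9 lay outside the Sham range, and the difference was -0.10 ± 0.15 (adjusted p = 0.757, limma with Benjamini-Hochberg). VCL, vinculin, which reinforces talin under force, was at 13.89 in s1, 14.28 in s3, 13.90 in s4, 14.27 in s5 and 13.36 in s9 in CTEPH, against 14.02 in s2, 13.78 in s6, 13.54 in s7, 13.80 in s8 and 13.56 in s10 in Sham. Again s9 was the lowest library, with s3 and s5 above the Sham range, and the difference was 0.20 ± 0.18 (adjusted p = 0.584, limma with Benjamini-Hochberg). TLN2, the talin of striated muscle, FERMT2, the kindlin of the heart, and ILK, the pseudokinase behind the beta tail, differed by 0.02 ± 0.15, -0.00 ± 0.14 and 0.11 ± 0.14 (adjusted p = 0.954, 0.992 and 0.699).

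The partners of ILK differed in opposite directions without passing. The PINCH gene LIMS2 was at 12.27 in s1, 12.62 in s3, 12.48 in s4, 12.36 in s5 and 12.53 in s9 in CTEPH, against 12.58 in s2, 13.55 in s6, 13.00 in s7, 12.92 in s8 and 13.05 in s10 in Sham. The groups overlapped only through s3 in CTEPH and s2 in Sham. The difference of -0.57 ± 0.16 had an adjusted p of 0.0679, and of 0.0356 without s2 and 0.0707 to 0.134 in the other 9 refits (limma, Benjamini-Hochberg). The other PINCH gene, LIMS1, differed by -0.33 ± 0.17 (adjusted p = 0.305). Both parvin genes were higher: PARVA, the widely expressed parvin, by 0.36 ± 0.15 and PARVB, enriched in heart and skeletal muscle, by 0.68 ± 0.29 (adjusted p = 0.212 and 0.208, limma with Benjamini-Hochberg). PARVA was at 10.79 in s1, 11.36 in s3, 11.56 in s4, 11.61 in s5 and 11.49 in s9 in CTEPH, against 10.99 to 11.03 in Sham. With Sham so narrow, 4 CTEPH libraries lay above it and s1 below it, and without s1 the adjusted p was 0.0224, and in the other 9 refits 0.276 to 0.365 (limma, Benjamini-Hochberg).

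The kinase and adaptor genes of the adhesion had small differences. PTK2, focal adhesion kinase, ranged from 11.21 in s9 to 11.88 in s5 in CTEPH, against 11.39 to 11.50 in Sham. As for PARVA, 4 CTEPH libraries lay above a narrow Sham range and 1 below it, here s9 (difference 0.23 ± 0.14, adjusted p = 0.379, limma with Benjamini-Hochberg). The docking proteins PXN and BCAR1 and the stretch-sensitive LIM protein ZYX differed by 0.20 ± 0.21, 0.03 ± 0.17 and 0.05 ± 0.21 (adjusted p = 0.638, 0.957 and 0.929).

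Of the genes that link the adhesion to actin, TNS3 was lower in CTEPH. TNS3, on chromosome 18 from 48960938 to 49192434, was at 9.23 in s1, 9.73 in s3, 9.68 in s4, 8.80 in s5 and 9.93 in s9 in CTEPH, against 10.96 in s2, 10.53 in s6, 10.34 in s7, 10.15 in s8 and 10.78 in s10 in Sham. Every CTEPH library lay below every Sham library, with s9 in CTEPH nearest to s8 in Sham. The difference was -1.08 ± 0.23 (SE), a 2.11-fold lower value (adjusted p = 0.0174, limma with Benjamini-Hochberg). It passed in each of the 10 refits without 1 library, with an adjusted p of 0.00992 to 0.0493 and a difference of -1.19 to -0.91. TNS3 overlaps an uncharacterised lncRNA over 1686 bases of its span. The endothelial marker level was lower beside it, at -0.48 to -0.06 in CTEPH and -0.11 to 0.63 in Sham over 10 genes. All 10 differences were negative, with a median of -0.38, where 46.4% of all genes had a positive difference. At an unadjusted p under 0.05, 5 of the 10 genes were lower (limma), against 10.5% of all genes. PECAM1, with the smallest difference of the 10 (-0.23), was at 13.23 ± 0.17 in CTEPH and 13.45 ± 0.34 in Sham (n = 5 each, SD). The 4 measured Schwann cell markers also had negative differences. Of these SOX10 fell (difference -1.09 ± 0.26, adjusted p = 0.0297, limma with Benjamini-Hochberg) and 0 rose, and 3 of the 4 were lower at an unadjusted p under 0.05, against the same 10.5% of all genes. Their median log2 difference was -1.07, and the list's level was -0.10 or lower in every CTEPH library (median -0.71), against -0.14 to 1.37 in Sham (median 0.44). SOX10 lost its call without s2, s3, s5, s6 or s7 (adjusted p of 0.0573 to 0.0772, limma with Benjamini-Hochberg). CDH19, of the same list, did not overlap between the groups, at 5.81 ± 1.13 in CTEPH and 7.45 ± 0.31 in Sham (adjusted p = 0.0576). The part of endothelial and Schwann cells in the value of TNS3 was not tested.

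The related TNS1 differed by -0.63 ± 0.28 without passing (adjusted p = 0.216, limma with Benjamini-Hochberg), with s2 in Sham at 14.77 above the other Sham libraries at 13.34 to 13.67. ACTN1, the alpha-actinin of adhesions and stress fibres, ranged from 11.08 in s9 and 11.37 in s1 up to 12.15 in s5 and 12.30 in s4 in CTEPH, against 10.99 in s10 to 11.61 in s6 in Sham. Libraries s3, s4 and s5 lay above the Sham range and s1 and s9 within it (difference 0.57 ± 0.23, adjusted p = 0.18; 0.048 without s9 and 0.111 to 0.344 in the other 9 refits, limma with Benjamini-Hochberg). FLNA, the filamin that also binds beta tails, ranged from 13.14 in s1 to 14.79 in s5 in CTEPH and from 14.06 to 14.79 in Sham (difference -0.25 ± 0.28, adjusted p = 0.675), and ACTN4 differed by -0.07 ± 0.23 (adjusted p = 0.896). FLNA and ITGB1BP2 lie on the X chromosome.

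The balance between related scaffold genes, as the log2 value of 1 minus that of the other within a library, was described for 6 pairs without a test. ACTN1 minus ACTN4 was at -2.07 in s1, -1.06 in s3, -0.89 in s4, -1.47 in s5 and -1.21 in s9 in CTEPH, against -1.78 in s2, -2.03 in s6, -1.92 in s7, -2.04 in s8 and -2.12 in s10 in Sham. The shift toward ACTN1 was seen in 4 of 5 CTEPH libraries and not in s1, with a mean shift of 0.64. Levels of the other pairs overlapped more widely. The mean shift was 0.45 for TNS1 minus TNS3, 0.24 for LIMS1 minus LIMS2, -0.13 for TLN1 minus TLN2, -0.32 for PARVA minus PARVB and -0.38 for FERMT2 minus FERMT3. Each of these 5 pairs had 3 or 4 CTEPH libraries within the Sham range.

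**Figure D4:**
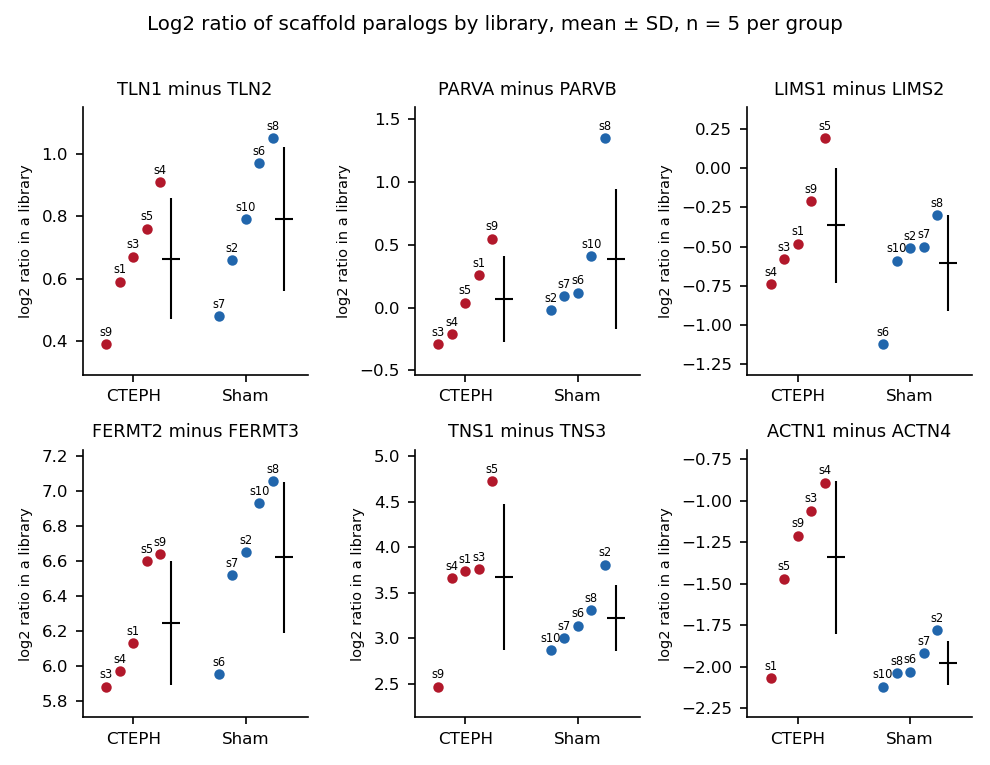
Within-library log2 ratio of 6 pairs of related scaffold genes, CTEPH left and Sham right, points for libraries and bars of mean ± SD (n = 5 per group). ACTN1 minus ACTN4 is the pair with 4 of 5 CTEPH libraries above the Sham range, and s1 lies within it.

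The CTEPH pigs differed from each other more than the Sham pigs did for these genes. The SD over CTEPH libraries exceeded that over Sham libraries for 36 of 43 genes (83.7%), against 69.6% of all genes, and the median SD was 0.49 in CTEPH and 0.28 in Sham, where over all genes it was 0.38 and 0.28. CTEPH libraries lay both above and below the Sham range for 15 of 43 genes (34.9%), against 26.5% of all genes. Among the CTEPH libraries s1 was the lowest for 17 genes and s9 for 16, so 1 of these 2 libraries was the lowest for 33 of 43 genes (76.7%), against 45.0% of all genes. The 2 libraries were picked after these values were seen. One of them was the highest of CTEPH for 16.3% of the 43 genes, against 47.6% of all genes. Their library weights over all genes, 0.476 for s1 and 0.508 for s9, were the lowest of the 10 libraries. Library s3 was the highest for 15 genes and s5 for 14. The relative depth of s1 was 0.975 and of s9 0.724, against 0.924 in s3, 1.57 in s4 and 1.07 in s5, and its part in this order was not tested. Library s1 was the highest of CTEPH for 3 genes, ITGA5, ITGB1BP2 and ITGB3.

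**Figure D5:**
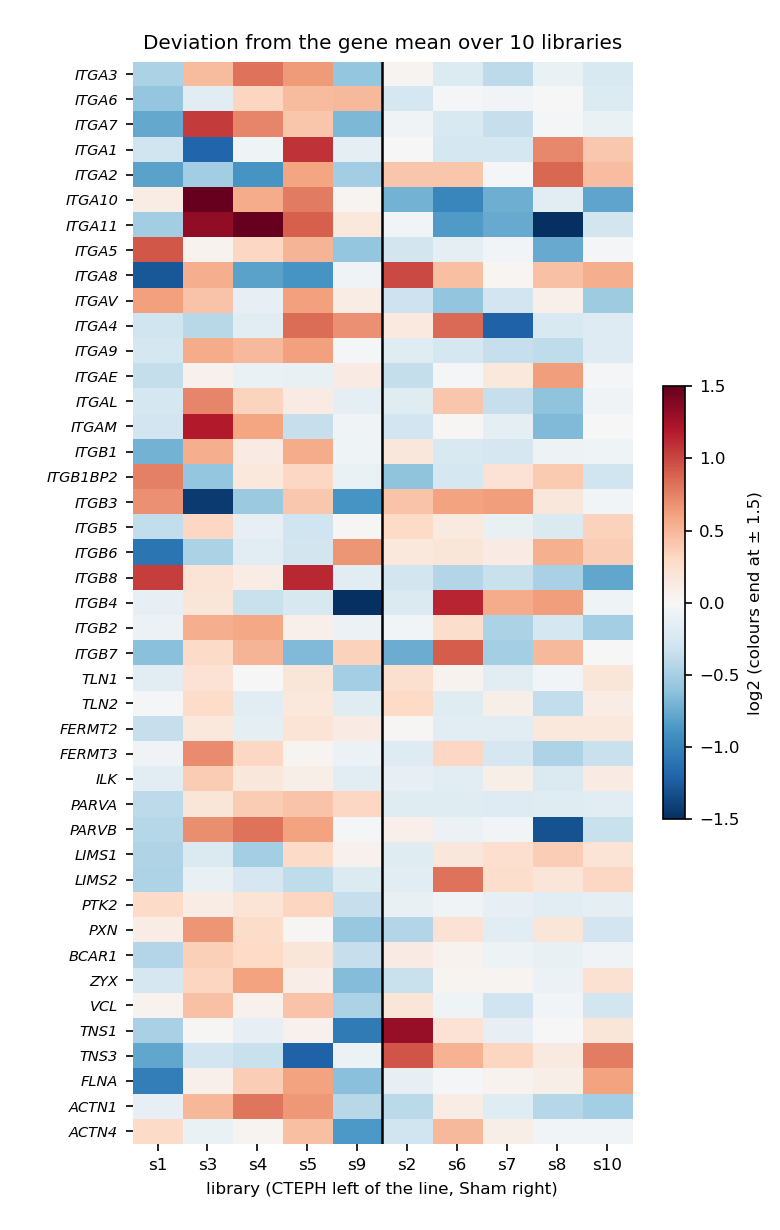
Deviation of each log2 value from the gene's mean over the 10 libraries, for the 43 genes (rows) and the libraries (columns, CTEPH left of the line and Sham right of it). Within CTEPH, s1 or s9 is the lowest library for 33 of the 43 genes.

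Other genes around the adhesion were read from 3 lists. Of 58 measured genes of focal adhesion and integrin signalling outside the 43, 1 rose and 0 fell, against a background of 2.83% rising and 1.79% falling, with 9 higher and 5 lower at an unadjusted p under 0.05 (9.84% and 10.5% over all genes) and a median log2 difference of 0.06. The rising gene was ENAH, an actin polymerization factor that binds zyxin, vinculin and other adhesion proteins, at 12.57 ± 0.55 in CTEPH and 11.20 ± 0.21 in Sham (n = 5 each, SD; difference 1.37 ± 0.23, adjusted p = 0.00464, limma with Benjamini-Hochberg). Its groups did not overlap, and its call held in the 10 refits without 1 library. The adhesion kinase gene SRC was at 10.65 ± 0.64 in CTEPH and 10.01 ± 0.10 in Sham, a difference of 0.64 ± 0.25 (adjusted p = 0.17, limma with Benjamini-Hochberg).

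Of 26 measured genes of the costamere and Z-disc link, 3 rose and 0 fell, against the background of 2.83% rising and 1.79% falling, with 4 higher and 2 lower at an unadjusted p under 0.05 and a median log2 difference of 0.18. DES, the intermediate filament that joins Z-discs to costameres, was at 18.68 ± 0.77 in CTEPH and 17.17 ± 0.29 in Sham (difference 1.51 ± 0.32, adjusted p = 0.0181, limma with Benjamini-Hochberg). CSRP3, a muscle LIM protein of the Z-disc, was at 16.31 ± 0.31 in CTEPH and 15.35 ± 0.42 in Sham (n = 5 each, SD; difference 0.95 ± 0.21, adjusted p = 0.0239, limma with Benjamini-Hochberg), with the call lost without s2, s4, s5, s6 or s10 (adjusted p of 0.0571 to 0.0649). XIRP2, an actin-binding protein of striated muscle, was at 11.97 ± 1.24 in CTEPH and 9.80 ± 0.33 in Sham (difference 2.17 ± 0.46, adjusted p = 0.0185, limma with Benjamini-Hochberg). The muscle filamin FLNC and sarcomeric alpha-actinin ACTN2 differed by 0.69 ± 0.33 and 0.44 ± 0.24 (adjusted p = 0.259 and 0.326), and CAV3 is not analysed here.

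Of 31 measured genes for integrin ligands, 2 rose and 1 fell, against the same 2.83% and 1.79% of all genes, with 8 higher and 3 lower at an unadjusted p under 0.05 and a median log2 difference of 0.20. SPP1 and CCN2 rose. VCAM1, the ligand of ITGA4 with ITGB1, fell, with its call held in the 10 refits without 1 library, at 10.68 ± 0.28 in CTEPH and 11.57 ± 0.24 in Sham (n = 5 each, SD; difference -0.89 ± 0.17, adjusted p = 0.00869, limma with Benjamini-Hochberg). CCN2, a matricellular ligand, had an adjusted p of 0.0198, and of 0.0531 and 0.0521 without s6 and s7. SPP1, the osteopontin ligand of ITGAV and ITGA9 receptors, was at 8.62 ± 1.23 in CTEPH and 6.32 ± 0.32 in Sham (difference 2.30 ± 0.47, adjusted p = 0.0161, limma with Benjamini-Hochberg). TNC, tenascin-C, another ligand of ITGA9, was at 9.16 ± 1.69 in CTEPH and 6.46 ± 1.26 in Sham, which missed the threshold (difference 2.70 ± 0.75, adjusted p = 0.0591, limma with Benjamini-Hochberg).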

How the data were processed

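RNA from right ventricular biopsies of 10 pigs, 5 CTEPH and 5 Sham, was sequenced with 1 library for each pig, per the labels. The build Sscrofa11.1 is named in the submitters' processing notes, as are featureCounts (no version), limma 3.50.0, edgeR 3.36.0, FastQC 0.11.5, cutadapt 1.15 and bcl2fastq 2.18.12. Aligner, annotation, filter and strand setting were not given in the sources used here. As deposited, the values are log2 values on nearly 1 distribution in every library (medians 9.305 to 9.308). Below 9.48 they equal, within 5.0e-10, the quantile mean of log2(count + 0.5) plus a constant, so 52.8% of the values were read back as whole counts; library totals are unknown. A change shared by most genes cannot appear in such values.

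Ensembl identifiers were paired with symbols for 12378 genes, and RefSeq coordinates of Sscrofa11.1 were matched by symbol for 43 of 43 genes. CTEPH was compared with Sham by limma 3.58.1 in R 4.3.3 (two-sided, intensity trend, no covariate, Benjamini-Hochberg over all genes), after the script was tested on simulated data. P-values set the difference between groups against the spread between libraries within groups, with 1 library for each pig and variances moderated over all genes. The genes and lists were chosen with earlier results of these data known, so no list was tested. Values by library are given for genes that passed, whose groups did not overlap, or that were set beforehand (ITGA7, ITGB1, ITGB1BP2, ITGB2, ITGAM, VCL and TLN1), and for ITGA11, ITGAV, ITGA9, LIMS2 and PARVA, which passed in at least 1 refit without 1 library and were chosen after their values were seen. Of the list genes, those that passed are named, at most 8 for each list, with SRC, FLNC and ACTN2; others named were chosen after their values were seen. Alternatives were other variance models, library weights, a filter, another scaling, a 1.5-fold threshold, a permutation test, leaving out each library and, added after seeing the data, the read-back counts per relative depth.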

Additional observations from a re-analysis of the deposited data

Results flagged for a closer look

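In groups of 5 libraries, a library was marked where its gap to the nearest other library took more of the group's range than Dixon's critical value, which chance gives in about 1 of 20 groups; 4 of 92 groups were marked. For ITGA2, CTEPH library s5 was at 8.16, with the other CTEPH libraries at 6.69 to 7.05. For TNS1, Sham library s2 was at 14.77, with the other Sham libraries at 13.34 to 13.67. For FLNA, Sham library s10 was at 14.79, with the other Sham libraries at 14.06 to 14.27. The muscle minus leukocyte integrin level was -0.63 in Sham library s6 and 0.01 to 0.27 in the other Sham libraries.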

How the results depend on the processing

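No paired analysis was possible because each library number occurs once. Over all genes, 723 were called (443 higher, 280 lower in CTEPH). Library weights gave 1269 (722 higher, 547 lower), a 1.5-fold threshold 127 (121 higher, 6 lower), and a filter that removed the lowest 25% of genes gave 273 higher. Leaving out 1 library gave 401 (without s4) to 961 called (without s1, and also without s9), 270 to 570 higher and 117 (without s6) to 392 lower.

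Of the 43 genes, 2 were called (1 higher, 1 lower). Library weights gave 7 called, 6 higher, adding ITGA11, ITGAV, ITGA9, ITGB8 and ACTN1, and a 1.5-fold threshold 0 called, 0 higher and 0 lower (limma, where 15 had an unadjusted p under 0.05 against no change). Leaving out 1 library gave 1 to 6 called, 0 to 4 higher and 1 to 2 lower: 6 without s9, 5 without s1, and 1 each without s6, s7 and s10. The count over all genes moved the same way in these settings. From 723 it rose to 1269 with library weights and to 961 without s9 and without s1. It fell to 425, 462 and 417 without s6, s7 and s10. ITGA10 and TNS3 kept their calls without the intensity trend, with robust moderation, with library weights, after the filter and with the other scaling. Over other settings than leaving out libraries, 3 values changed sign, none of a called gene: FERMT2 was at 0.01 and ITGB7 at 0.09 with library weights, and ITGB7 at 0.02 from read-back counts, which covered 9 of the 43 genes. Without 1 library each, the sign was not fixed for ITGA1 (-0.54 to 0.03), ITGA4 (-0.01 to 0.50), ITGB7 (-0.25 to 0.16), TLN1 (-0.17 to 0.01), TLN2 (-0.07 to 0.10), FERMT2 (-0.06 to 0.08), BCAR1 (-0.06 to 0.14), ZYX (-0.10 to 0.22) and ACTN4 (-0.20 to 0.14). The cause of these changes was not tested. The levels of the muscle and leukocyte sets and their difference moved by less than 1 SD in every alternative. The shifts themselves, 0.23, 0.22 and 0.01, were smaller than the CTEPH SD of 0.35, 0.28 and 0.30, so this does not show that they are stable. The shift in the difference changed sign between refits without 1 library. Read-back counts per relative depth gave no count over the whole table, since they cover 6763 genes.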
